A study of Mus musculus with 4 samples.

Results

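The levels of 10 ubiquitin ligase genes of striated muscle were examined in C2C12 cells before and during differentiation and after transfection of a siRNA against hnRNPL: Fbxo32, Trim63, Trim54, Trim55, Trim72, Klhl31, Klhl40, Klhl41, Asb2 and Asb5. They were chosen by name as genes that encode a ligase or the substrate-binding subunit of one and were the rows whose identifier equalled these symbols. All 10 were found in every library, among 24320 named genes in the total RNA tables and 24438 in the polyA tables. C2C12 cells are mouse myoblasts of an established line, which leave the cell cycle and fuse into multinucleated myotubes in differentiation medium (DM), a medium low in serum. Total RNA depleted of rRNA was sequenced from 1 library of myoblasts (MB) at DM -24 h and 1 library of myotubes (MT) at DM 72 h. PolyA RNA was sequenced from 1 MT library transfected with si-hnRNPL and 1 transfected with the control siRNA si-NC, both at DM 48 h. All 4 cultures were of the same line, and since each condition was sequenced once, the spread between cultures is unknown and differences are given without p-values. In a whole culture, fewer cells of a type and less RNA per cell cannot be told apart.

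A ubiquitin ligase joins ubiquitin to a chosen protein, and a chain of ubiquitin sends that protein to the proteasome. RING ligases such as the TRIM proteins do this as single polypeptides, whereas the F-box, KLHL and ASB proteins are the substrate-binding parts of larger ligases built on a cullin scaffold (CUL1, CUL3 and CUL5, respectively). In skeletal muscle, Fbxo32 (atrogin-1) and Trim63 (MuRF1) are the ligase genes best known for induction during wasting, where FOXO factors activate them. Trim63, Trim54 and Trim55 encode the MuRF proteins of the sarcomere, Trim72 encodes MG53, a protein of membrane repair, and loss of Klhl40 or Klhl41 causes nemaline myopathy.

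The sequence just before the transcription start is shown for the ligase genes with the steepest MT over MB differences and for Trim63, since the myogenic factors MyoD and myogenin bind E-boxes (CANNTG) and FOXO factors bind a core written GTAAACA. The 250 bases before the start were taken from RefSeq (GRCm38.p6, plus strand): chr4:134314870-134315119 for Trim63, chr9:121777357-121777606 for Klhl40, chr2:69669870-69670119 for Klhl41 and chr7:128004128-128004377 for Trim72. Capitals mark every E-box and every FOXO core on either strand.

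Trim63: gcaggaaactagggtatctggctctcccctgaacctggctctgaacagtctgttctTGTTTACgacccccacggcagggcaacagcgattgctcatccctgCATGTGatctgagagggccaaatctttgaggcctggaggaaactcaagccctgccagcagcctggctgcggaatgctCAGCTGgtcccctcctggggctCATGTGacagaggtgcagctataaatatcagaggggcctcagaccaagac
Klhl40: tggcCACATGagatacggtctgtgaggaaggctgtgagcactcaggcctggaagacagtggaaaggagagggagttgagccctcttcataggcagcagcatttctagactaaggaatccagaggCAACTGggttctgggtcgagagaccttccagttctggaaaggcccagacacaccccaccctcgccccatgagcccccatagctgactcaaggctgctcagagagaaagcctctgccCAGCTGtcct
Klhl41: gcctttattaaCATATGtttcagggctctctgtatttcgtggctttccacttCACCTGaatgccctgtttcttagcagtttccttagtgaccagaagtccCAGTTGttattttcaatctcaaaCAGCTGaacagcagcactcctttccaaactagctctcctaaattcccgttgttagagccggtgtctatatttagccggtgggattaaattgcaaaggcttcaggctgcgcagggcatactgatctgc
Trim72: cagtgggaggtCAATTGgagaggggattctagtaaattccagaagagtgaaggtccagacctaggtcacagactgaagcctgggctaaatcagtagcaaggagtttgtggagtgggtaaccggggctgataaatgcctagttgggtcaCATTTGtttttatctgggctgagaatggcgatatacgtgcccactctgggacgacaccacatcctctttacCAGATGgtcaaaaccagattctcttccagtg

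The Trim63 stretch held E-boxes that began at -149, -72 and -50 from the start site, the one at -72 being CAGCTG, and a FOXO core on the reverse strand at -194. That of Klhl40 held E-boxes at -246, -126 and -10 (CAGCTG), with one more at 8 past the start. In Klhl41 they began at -239, -198 (CACCTG), -150 and -127 (CAGCTG), and in Trim72 at -239, -102 and -31. Over windows from 250 bases before to 50 after the start, RefSeq gave 11 windows for 8 of the 10 genes, and Fbxo32 and Trim55 had no entry. An E-box was present in 10 of the 11 windows (90.9%) against 72.3% of 32851 promoters, and Klhl31 was the gene without one. The form CAGCTG, which is contained in CANNTG, was present in 6 windows (54.5%), those of Trim63, Trim54, Klhl40, Klhl41, Asb2 and Asb5, against 16.3% of promoters. The form CACCTG was present in 1 window (9.09%) against 20.2%, and the FOXO core in 1 window (9.09%) against 3.65%. These matches describe letters in a window and no binding was measured.

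In mm9, the build of the deposited loci, the genes lay on 9 chromosomes, with Klhl31 (chr9:77484539-77507929) and Klhl40 (chr9:121686725-121692937) both on chromosome 9. The others were Fbxo32 (chr15:58007434-58046447, minus strand), Trim63 (chr4:133871035-133885544), Trim54 (chr5:31418985-31439999), Trim55 (chr3:19544460-19591599), Trim72 (chr7:135147892-135154907), Klhl41 (chr2:69508177-69522296), Asb2 (chr12:104559352-104594211, minus strand) and Asb5 (chr8:55635684-55673189). All 10 were protein-coding in the GENCODE annotation, with longest transcripts of 3 exons in Klhl31 to 10 exons in Trim55 and Asb2. In that annotation their lengths ran from 1434 bases in Trim54 to 6253 bases in Klhl31. Levels were therefore compared between genes on FPKM, a fragment number scaled to transcript length and library size. The deposited Fbxo32 locus began at 58007434 and the annotated gene at 58011634, so the transcript behind its FPKM may be longer than the annotated one.

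The labels were checked before the members were read. Myog, which encodes myogenin, stood at 0.695 FPKM in MB and 251 FPKM in MT, and all 7 myotube markers were higher in MT, with a summed level of 16.7 FPKM in MB and 1897 FPKM in MT. The 7 markers of proliferating myoblasts summed to 533 FPKM in MB and 109.8 FPKM in MT, although Myf5 and Pax7 were not lower. Cardiac markers summed to at most 4.24 FPKM, osteoblast markers to at most 1.64 FPKM and adipocyte markers to at most 0.251 FPKM in any library. The widths of the 95% intervals that accompany each FPKM corresponded to 59960176 fragments over all entries in MB, 54442423 in MT, 21341051 in si-NC and 14592480 in si-hnRNPL.

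The siRNA numbered si-hnRNPL #1 by the study is shown because the RNA level of its target was read beside those of the ligases. The study used more than 1 siRNA against hnRNPL, and the sample label does not say which was transfected here.
si-hnRNPL: gcgugcuucuguuuaccau
Its 19 bases matched positions 1127 to 1145 of the longest Hnrnpl transcript (2679 bases) and no transcript of another gene among 55443 protein-coding transcripts searched, the 10 ligases included. Hnrnpl stood at 95.1 FPKM (95% interval 92.7 to 97.5) in si-NC and 85.9 FPKM (83.1 to 88.7) in si-hnRNPL, a log2 difference of -0.14 (-0.20 to -0.09). The target was therefore lower in the si-hnRNPL library by a small amount at the level of total FPKM. That difference lay within the middle of all named genes (-0.33 to 0.36). In this pair 19.6% of named genes were lower with intervals apart, so the RNA value does not set the target apart. The study examined the knockdown by Western blot, which measures protein. Between MB and MT, Hnrnpl stood at 111 and 63.0 FPKM.

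**Figure D1:**
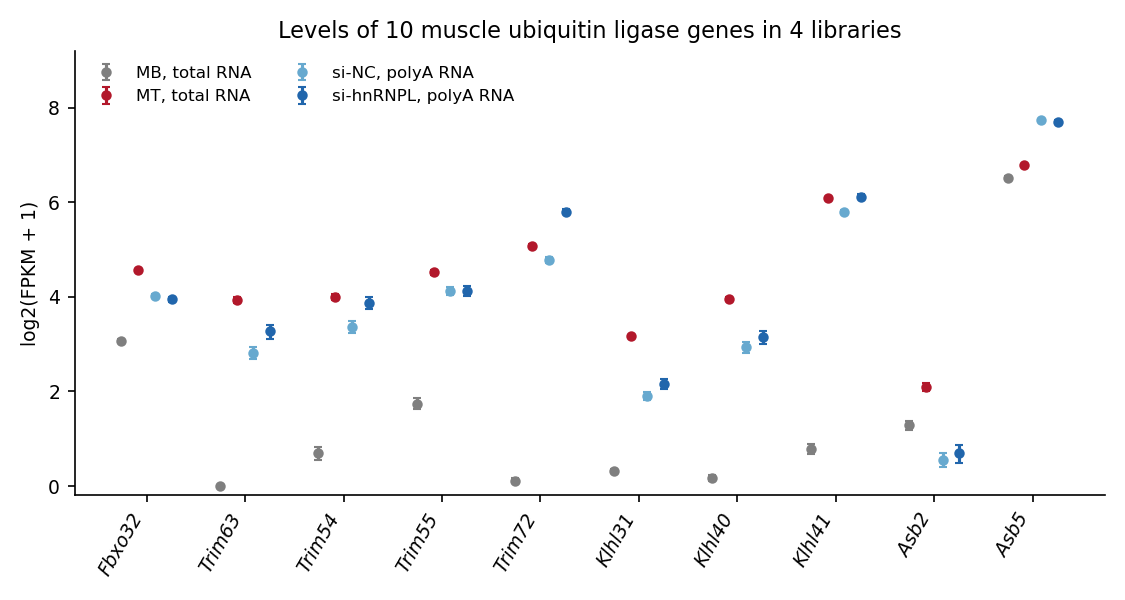
Level of each ligase gene as log2(FPKM + 1) in MB and MT (total RNA) and in si-NC and si-hnRNPL (polyA RNA), 1 library each, with bars for the deposited 95% interval. Asb5 is the highest gene in all 4 libraries, and Trim63 is at 0 in MB and at 14.3 FPKM in MT.

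The order of the 10 genes differed between the libraries. In MB, Asb5 stood at 90.5 FPKM and Fbxo32 at 7.42 FPKM, followed by Trim55 at 2.34 FPKM and Asb2 at 1.43 FPKM, and the other 6 lay below 1 FPKM. Klhl41 and Trim54 did not differ beyond their intervals in MB, nor did Klhl40 and Trim72. In MT the order was Asb5, Klhl41, Trim72, Fbxo32, Trim55, Trim54, Klhl40, Trim63, Klhl31 and Asb2. The intervals overlapped there between Fbxo32 and Trim55, between Trim54 and Klhl40, and between Klhl40 and Trim63. The si-NC library had Asb5, Klhl41 and Trim72 at the top and Klhl31 and Asb2 at the bottom as well, with overlaps between Trim55 and Fbxo32 and between Klhl40 and Trim63. In si-hnRNPL the overlapping neighbours were Fbxo32 with Trim54 and Trim63 with Klhl40.

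MT was compared with MB to ask which ligase genes accompany differentiation. Of the 10 genes, 9 were higher in MT by a log2((FPKM + 1) ratio) of at least 0.58, and 0 were lower. Over the 11731 named genes that reached 1 FPKM in either library, 15.5% were higher and 28.6% lower by the same size. All 10 members reached 1 FPKM in MT and 4 did in MB, so the others were kept through MT alone. The intervals of the 2 libraries did not overlap for any of the 10 genes, all 10 being higher in MT, while 32.1% of named genes were higher and 54.3% lower in that sense. The median log2 difference of the members was 3.07, and that of all 11731 genes was -0.20. The myotube markers above moved with these genes, and their part in the result was not tested.

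Among the RING ligases, the 3 MuRF genes were low in MB and reached 14.3 to 21.9 FPKM in MT. Trim63, whose protein binds titin at the M-line, was listed at 0 FPKM in MB and at 14.3 FPKM (13.7 to 14.9) in MT. No fold is given for it, and its log2 difference of 3.94 depended on the pseudocount. A value of 3 fragments would have been 0.0210 FPKM in MB. Trim54 (MuRF3), which associates with microtubules, stood at 0.616 FPKM (0.468 to 0.763) in MB and 14.9 FPKM (14.2 to 15.6) in MT, a fold of 24.2 (19.0 to 30.9). Trim55 (MuRF2) stood at 2.34 FPKM (2.08 to 2.61) in MB and 21.9 FPKM (21.1 to 22.7) in MT, a fold of 9.35 (8.31 to 10.5). The MB and MT intervals lay apart for all 3 MuRF genes, and Trim55 was the one already above 1 FPKM in MB.

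Trim72, the gene of the membrane repair protein MG53, stood at 0.0783 FPKM (0.0379 to 0.119) in MB and 32.8 FPKM (32.0 to 33.6) in MT. The fold was 419 (250.1 to 703), and since the MB value rested on 15.0 fragments, its size was known only within that interval. Its log2((FPKM + 1) ratio) of 4.97 (4.91 to 5.03) ranked 33 of 11731 genes. Trim72 thus had the largest fold of FPKM among the 9 members that can be given one.

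Fbxo32, the F-box gene, was already well above 1 FPKM in MB. It stood at 7.42 FPKM (7.19 to 7.65) in MB and 22.7 FPKM (22.3 to 23.1) in MT, a fold of 3.06 (2.96 to 3.18). Its log2 difference ranked 504 of 11731 genes. Fbxo32 was above Trim63 in MB and in MT, with intervals apart in both.

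The 3 KLHL genes, whose proteins bind CUL3, were all below 1 FPKM in MB. Klhl41 stood at 0.721 FPKM (0.600 to 0.842) in MB and 66.9 FPKM (65.8 to 68.1) in MT, a fold of 92.9 (78.5 to 109.9), and its log2 difference of 5.30 (5.20 to 5.40) ranked 25 and was the largest of the 10 at a pseudocount of 1. With a pseudocount of 0.1, Trim72 (7.53) and Trim63 (7.17) exceeded Klhl41 (6.35). Klhl40, whose product stabilises the thin filament proteins nebulin and leiomodin 3, stood at 0.131 FPKM (0.0789 to 0.184) in MB and 14.5 FPKM (14.0 to 15.1) in MT, a fold of 110.4 (73.9 to 165) that rested on 25.0 fragments in MB. Klhl31, whose product takes filamin C as a substrate, stood at 0.247 FPKM (0.203 to 0.292) in MB and 7.96 FPKM (7.71 to 8.20) in MT, a fold of 32.2 (26.8 to 38.6). In MT all 3 had left the range of their MB values, with Klhl41 highest and Klhl31 lowest.

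The 2 ASB genes, whose proteins bind CUL5, differed least. Asb2, the product of which targets filamins, stood at 1.43 FPKM (1.27 to 1.60) in MB and 3.28 FPKM (3.03 to 3.52) in MT, a log2 difference of 0.82 (0.69 to 0.94). Asb5 stood at 90.5 FPKM (88.8 to 92.3) in MB and 109 FPKM (107 to 111) in MT, a log2 difference of 0.27 (0.23 to 0.30), and was the 1 member short of 0.58. Asb5 was thus abundant in MB and in MT, and Asb2 was the least abundant member in MT.

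**Figure D2:**
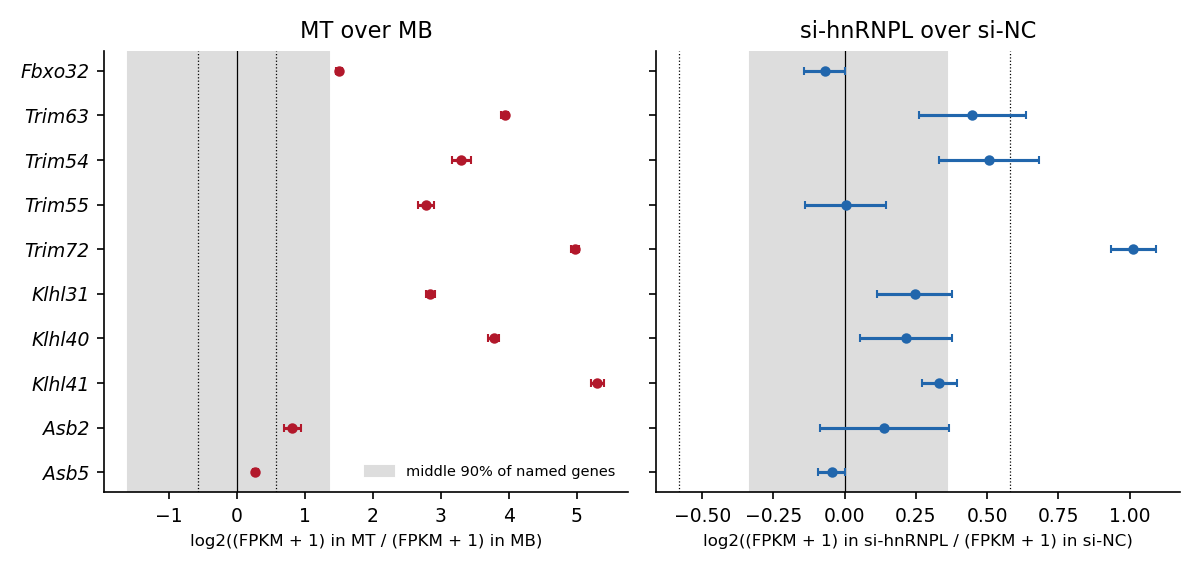
Log2((FPKM + 1) ratio) of each ligase gene in MT over MB (left) and in si-hnRNPL over si-NC (right), with bars for the 95% interval from both libraries, dotted lines at 0.58 in either direction, and shading for the middle of all named genes (-1.61 to 1.35 left, -0.33 to 0.36 right). On the left 9 genes lie past 0.58, and on the right Trim72 alone does.

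The si-hnRNPL and si-NC libraries were compared to ask whether the same genes differed after transfection of the siRNA. Of the 9 members that reached 1 FPKM in either library, 1 was higher by 0.58 or more, Trim72, and 0 were lower. Over 11322 named genes, 1.30% were higher and 0.874% lower. Intervals lay apart for 5 members, Trim72, Trim54, Trim63, Klhl41 and Klhl31, all higher in si-hnRNPL, beside 14.2% of named genes that were higher and 19.6% that were lower in that sense. The median log2 difference was 0.25 over the 9 members and -0.010 over all 11322 genes.

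Trim72 stood at 26.5 FPKM (25.4 to 27.7) in si-NC and 54.5 FPKM (52.5 to 56.6) in si-hnRNPL. The fold was 2.06 (1.94 to 2.18) and the log2 difference 1.01 (0.93 to 1.09), rank 31 of 11322 genes. The Trim72 value in si-hnRNPL was also above that in MT (32.8 FPKM), which came from total RNA at a later time, so these values are set side by side only.

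The myotube markers moved with it. All 7 had a log2 difference above 0, from 0.36 for Myh3 to 0.71 for Ckm, with a median of 0.51, and 3 passed 0.58: Ckm (45.0 FPKM in si-NC and 74.3 FPKM in si-hnRNPL), Mylpf (998 and 1612 FPKM) and Acta1 (1009 and 1537 FPKM). The proliferation markers Mki67 (24.3 and 15.5 FPKM) and Top2a (64.3 and 42.2 FPKM) were lower by at least 0.58, and none of the 7 markers of proliferating myoblasts was above 0. The log2 difference was 1.01 (0.93 to 1.09) for Trim72 and 0.71 (0.59 to 0.83) for Ckm. Those intervals describe counting in 1 library per condition and not the spread between cultures. The part of these markers in the members' result was not tested.

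The other members with intervals apart were higher by less than 0.58. Trim54 stood at 9.34 FPKM (8.43 to 10.2) in si-NC and 13.7 FPKM (12.3 to 15.0) in si-hnRNPL, a log2 difference of 0.51 (0.33 to 0.68). Trim63 stood at 6.06 FPKM (5.41 to 6.71) and 8.64 FPKM (7.67 to 9.60), a log2 difference of 0.45 (0.26 to 0.64). Those intervals reached past 0.58, so neither gene can be placed on 1 side of that size. Klhl41 stood at 54.1 FPKM (52.4 to 55.7) in si-NC and 68.3 FPKM (66.1 to 70.6) in si-hnRNPL, a log2 difference of 0.33 (0.27 to 0.40). Klhl31 stood at 2.77 FPKM (2.54 to 2.99) and 3.46 FPKM (3.15 to 3.78), a log2 difference of 0.25 (0.11 to 0.38). The intervals of these 4 differences overlapped one another.

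Klhl40 stood at 6.63 FPKM (6.04 to 7.21) in si-NC and 7.85 FPKM (7.07 to 8.64) in si-hnRNPL, with overlapping intervals and a log2 difference of 0.22 (0.05 to 0.38). Trim55 stood at 16.4 FPKM (15.3 to 17.5) and 16.5 FPKM (15.1 to 17.8), a fold of 1.00, with a log2 difference between -0.14 and 0.14. Trim55 was thus the MuRF gene without a difference beyond its interval in the pair. Fbxo32 stood at 15.2 FPKM (14.7 to 15.7) in si-NC and 14.4 FPKM (13.8 to 15.0) in si-hnRNPL, a log2 difference of -0.07 (-0.14 to 0.00), so any difference larger than 0.14 in either direction lay outside its interval. Asb5 stood at 213 FPKM (208 to 217) and 206 FPKM (201 to 211), a log2 difference of -0.05. Asb2 stood at 0.470 FPKM (0.321 to 0.618) and 0.619 FPKM (0.407 to 0.830) on 40.0 and 34.2 fragments, too few to place it.

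**Figure D3:**
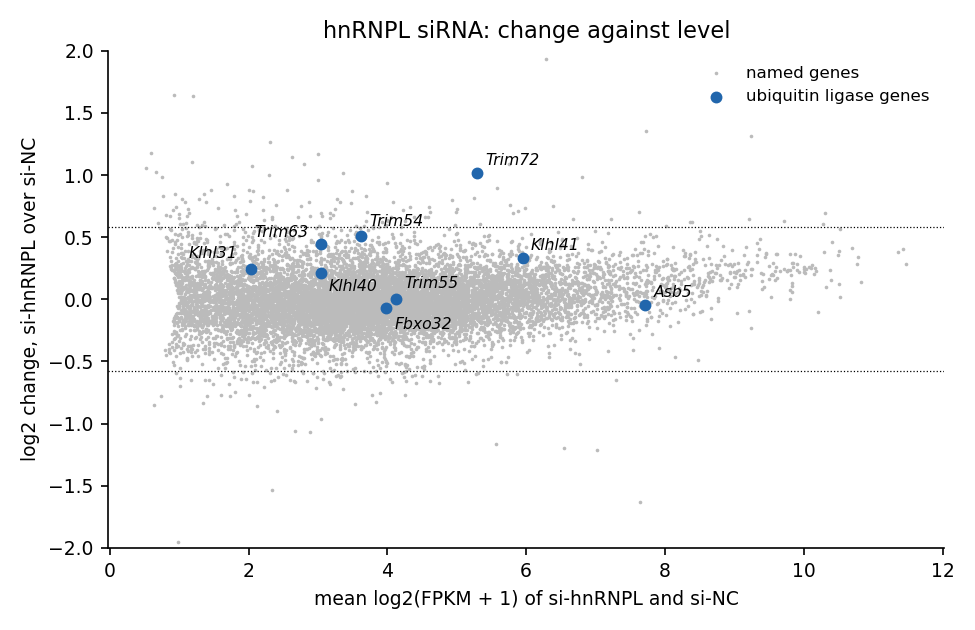
Log2 difference of si-hnRNPL over si-NC against the mean log2(FPKM + 1) of both libraries, for named genes (grey) and the 9 ligase genes that reached 1 FPKM (blue), with dotted lines at 0.58 in either direction. Trim72 lies above the upper line and the other 8 between the lines, and 23 named genes fall outside the plotted range.

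Over all 11322 genes in si-hnRNPL, 147 were higher and 99 lower. Requiring 1 FPKM in both libraries gave 109 and 83 of 11046 genes. Dependence on transcript length and GC content was taken out over the 10672 of these with a known length. The counts there were 43 and 52. With the same correction, a step chosen for single genes after seeing the data, Trim72 stood at 0.93, Trim63 at 0.34, Trim54 at 0.32, Klhl41 at 0.37, Klhl31 at 0.39 and Klhl40 at 0.11 on the log2 scale. Trim72 stayed past 0.58, and Trim54 moved by more than any other member.

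The rest of the ubiquitin pathway was read from lists of other genes. Of 15 cullin-RING scaffolds and adaptors, 1 was higher in MT, Cand2 (2.72 FPKM in MB and 8.33 FPKM in MT), and 1 was lower, Cand1 (40.1 and 25.7 FPKM). Both encode exchange factors for cullin ligases, and the scaffolds themselves lay within 0.58: Cul1 stood at 51.2 and 62.9 FPKM, Cul3 at 44.7 and 41.1 FPKM and Cul5 at 18.1 and 22.1 FPKM. Of 17 genes of ubiquitin, E1 and E2 enzymes, 1 was higher, Ube2d1 (24.7 and 38.4 FPKM), and 4 were lower, among them Rps27a (443 and 281 FPKM) and Ube2e1 (34.0 and 21.4 FPKM). The median log2 difference was -0.12 for the cullin list and -0.35 for the ubiquitin list, beside 3.07 for the members. With 1 FPKM required in both libraries, 4 members were left and their median was 1.16.

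Other substrate-binding families were read at 1 FPKM or more in either library, a level that 10 members reached in MT and 4 in MB. Members kept through MT alone could only be higher there, so the members' direction cannot be set against that of these families. The other KLHL and KBTBD genes reached it for 12 genes in MT and 11 in MB, and the other ASB genes for 6 in each. Of 16 other KLHL and KBTBD genes, 12 were at that level, of which 4 were higher in MT and 2 lower, with a median of 0.034. Klhl30 (6.74 FPKM in MB and 36.4 FPKM in MT), Klhl33 (0.184 and 2.70 FPKM) and Klhl13 (4.07 and 10.3 FPKM) were the 3 highest, and Klhl21 (18.1 and 10.4 FPKM) and Keap1 (19.1 and 12.1 FPKM) were lower. Of 16 other ASB genes, only 6 were at that level, of which 0 were higher and 1 was lower, Asb6 (24.6 and 13.7 FPKM). The rest of that family lay below 1 FPKM in both libraries and was not counted. Among these, Asb14 (0.0668 and 0.507 FPKM) and Asb16 (0 and 0.478 FPKM) were higher in MT with intervals apart. Asb4 (0.0309 and 0.0184 FPKM) and Asb17 (0.0136 and 0 FPKM) were lower with overlapping intervals. Of 18 other ligases studied in muscle wasting or muscle cells, 17 were at that level. Of these, 1 was higher, Fbxl22 (0.751 and 2.21 FPKM), and 1 was lower, Stub1 (45.7 and 29.5 FPKM). In si-hnRNPL over si-NC, 0 genes of these 5 lists were higher or lower by 0.58, and their medians lay between -0.11 and 0.027.

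**Figure D4:**
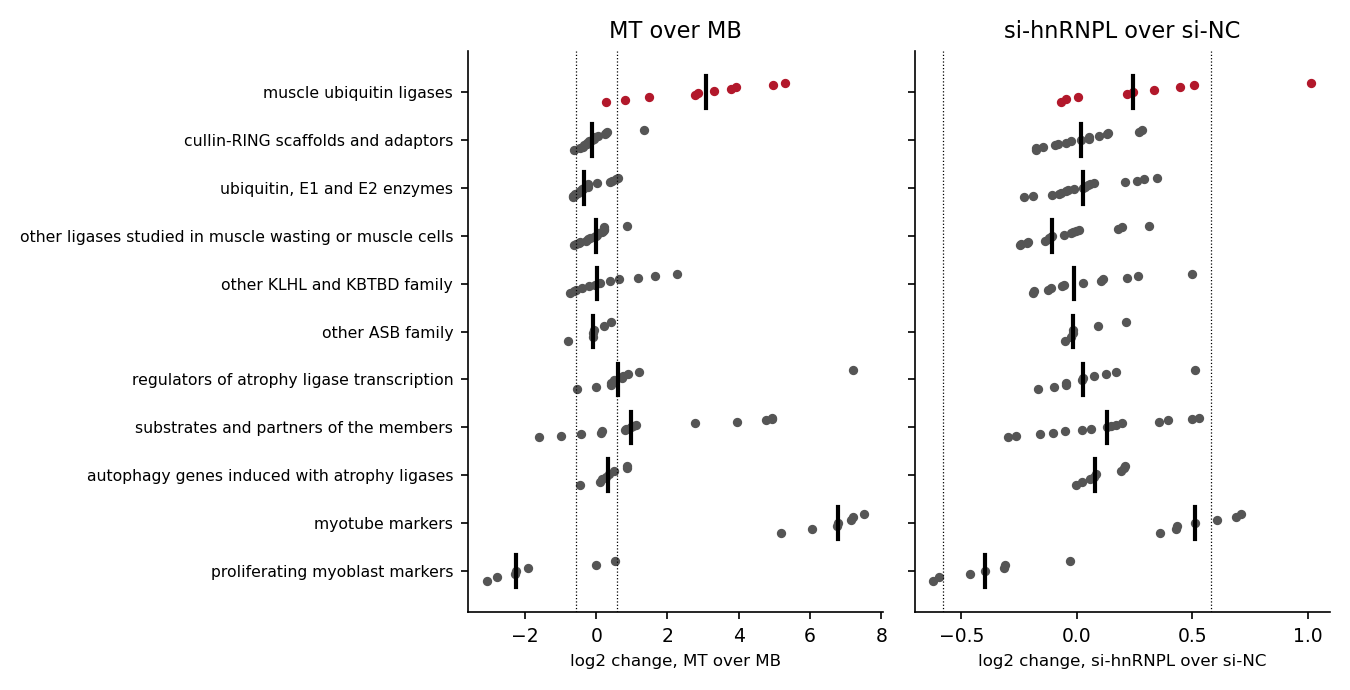
Log2 difference of each gene at 1 FPKM or more in the muscle ubiquitin ligases (red) and in 10 other lists (grey), in MT over MB (left) and si-hnRNPL over si-NC (right), with a bar at each median and dotted lines at 0.58 in either direction. The median of the ligases is 3.07 on the left and 0.25 on the right, below that of the myotube markers in both panels (6.79 and 0.51).

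Among factors that regulate the wasting-related ligases, 5 of 10 were higher in MT and 0 lower, with a median of 0.61. The higher ones included Myog, Foxo6 (0.851 FPKM in MB and 3.21 FPKM in MT) and Foxo4 (6.09 and 12.1 FPKM). Foxo1 stood at 4.89 and 4.92 FPKM, and Foxo3 at 5.51 and 8.14 FPKM, a log2 difference of 0.49. In si-hnRNPL over si-NC, 0 of the 10 passed 0.58, with Foxo1 at 4.57 and 4.21 FPKM, Foxo3 at 5.65 and 5.77 FPKM and Myog at 175 and 249 FPKM. Autophagy genes that are induced together with these ligases gave 2 of 8 higher in MT, Bnip3 (19.2 and 36.1 FPKM) and Map1lc3b (48.9 and 89.0 FPKM), and 0 of 8 past 0.58 in si-hnRNPL.

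Of 15 substrates and partners of the ligases, 10 were higher in MT and 2 lower, with a median of 0.98. The 3 highest were Lmod3 (0.0985 FPKM in MB and 32.9 FPKM in MT) and Ttn (0.310 and 38.8 FPKM), which encode leiomodin 3 and titin, and Neb (0.0573 and 27.7 FPKM), which encodes nebulin. The partners of MG53 in membrane repair, Cav3 (0.327 and 19.5 FPKM) and Dysf (3.17 and 7.59 FPKM), were higher as well. Filamins differed in direction: Flnc stood at 26.3 and 46.9 FPKM, whereas Flna (317 and 159 FPKM), a substrate of the ASB2 ligase, was lower. In si-hnRNPL over si-NC, 0 of the 15 passed 0.58, and Cav3 stood at 4.05 and 6.14 FPKM, a log2 difference of 0.50 (0.22 to 0.78), and Dysf at 8.98 and 10.0 FPKM, a log2 difference of 0.15.

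Genes next to the ligase genes were read to see whether whole neighbourhoods differed. Within 100 kb of the members lay 59 named genes in the total RNA tables, of which 38 reached 1 FPKM. Of these, 6 were higher in MT and 13 lower, beside 15.5% and 28.6% of all named genes, and their log2 differences ran from -2.16 to 1.92 with a median of -0.30. The higher ones were Zhx1, Atraid, Zfp651, Ccdc173, Ifi27l2a and Ifi27, and the lower ones included Atad2, Zfp593, Slc5a6, Cad, Gtf3c2, Eif2b4, Ppm1g, Gclc, Sec22c, Lrp2, Ifi27l2b and Spcs3. Hhatl, 197 bases downstream of Klhl40, stood at 0.0282 FPKM in MB and 0.427 FPKM in MT and was named after its value was seen. In si-hnRNPL over si-NC, 34 neighbours reached 1 FPKM, 0 were higher and 1 was lower, Atad2 near Fbxo32 (23.9 FPKM in si-NC and 13.7 FPKM in si-hnRNPL). Among the neighbours of Trim72 at that level, Bckdk stood at a log2 difference of 0.10 and Kat8 at 0.023, beside 1.01 for Trim72 itself.

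**Figure D5:**
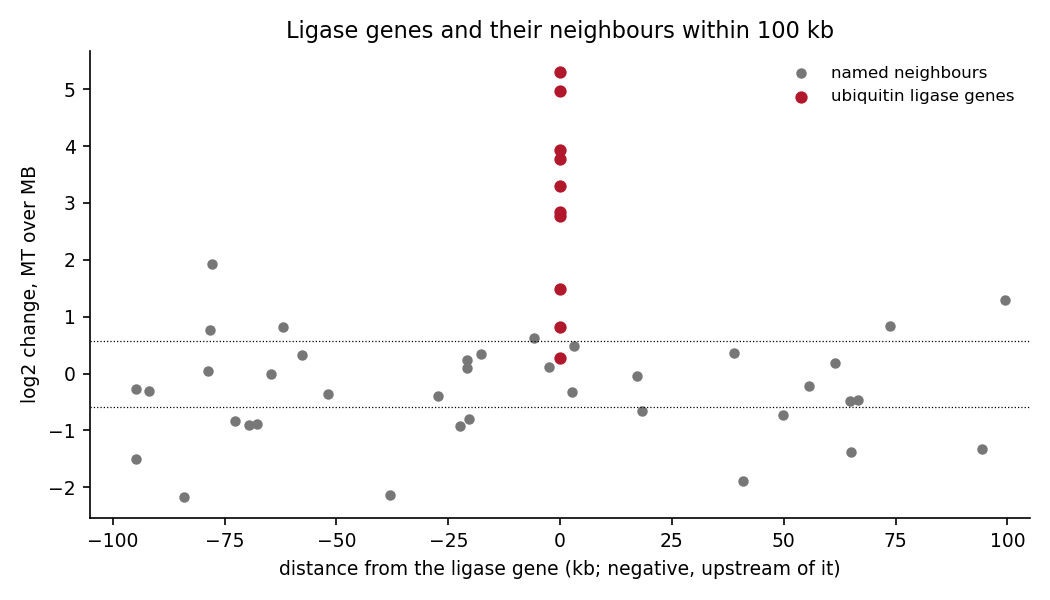
Log2 difference of MT over MB for the 10 ligase genes (red, at distance 0) and their named neighbours at 1 FPKM or more (grey), against the distance between neighbour and ligase gene in kb, with dotted lines at 0.58 in either direction. The neighbours run from -2.16 to 1.92, and 7 ligase genes lie above the highest of them.

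The total RNA tables also held transcript units assembled from the reads that carry no gene symbol. In all, 7 such units of 219 to 768 bases lay within the Trim55 locus without touching an annotated exon. They stood at 0 to 0.571 FPKM in MB and 2.34 to 5.62 FPKM in MT, on 0 to 7 fragments in MB and 20 to 126 in MT. All 7 were higher in MT, as Trim55 was, with log2 differences of 1.52 to 2.53. A single unit of 1032 bases lay within Asb2 at 0.318 FPKM in MB and 0.711 FPKM in MT, and the other 8 loci held none. The tables do not give the strand of a unit, so whether these were unspliced RNA of the ligase gene was not tested.

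The genes with profiles most like those of 3 members were found by the Euclidean distance of log2(FPKM + 1) over the 4 libraries, among 23668 named genes. The nearest to Trim63 was another member, Klhl40, at a distance of 0.243, followed by Unc45b (0.336). Nearest to Fbxo32 were Bcl6 (0.236), Creld1 (0.280) and Ezh1 (0.290), all at 6.48 to 6.82 FPKM in MB and 19.6 to 20.4 FPKM in MT. The profile of Trim72 was less closely matched, by Ctrb1 (0.523), Hfe2 (0.539) and Itgb1bp2 (0.589). Ctrb1 stood at 23.9 FPKM in si-NC and 40.2 FPKM in si-hnRNPL, and Hfe2 at 22.2 and 39.4 FPKM. A distance over 4 libraries describes these libraries only.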

How the data were processed

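RNA-seq of C2C12 cells was measured in 4 libraries: total RNA of MB and MT and polyA RNA of si-NC and si-hnRNPL. Per the submitters' processing notes, TopHat2 and Cufflinks were used with mm9, and the authors deposited FPKM values, each with a 95% interval for the uncertainty of counting and read assignment in that library. Depth was read from those intervals, as the fragment number that would give such a width. Differences were computed as log2((FPKM + 1) ratio) with a pseudocount of 1, over named genes that reached 1 FPKM in either library of a pair, and 0.58 or more was counted as a difference. The intervals of both libraries were added in quadrature. Of entries that share a symbol, the one with the higher summed FPKM was used. Gene models were from the GENCODE annotation of mm9, where Klhl40 and Klhl41 carry older symbols. The siRNA sequence was that of si-hnRNPL #1 in the study's oligo list, and promoters came from RefSeq (GRCm38.p6), matched by symbol. The E-box, its forms and the FOXO core that the text spells out were searched on both strands.

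The members, gene lists, naming rule and alternatives were chosen with earlier results of these data known. The text names the members, Hnrnpl and Myog, up to 3 genes with the largest rise and fall past 0.58 in each list, partners named as background, neighbours past 0.58, and the 3 nearest profiles of Fbxo32, Trim63 and Trim72. A few genes within this rule are left out here. Other pseudocounts (0.1 and 0.01), centring, filters, summed entries, nearest interval bounds, a log2 size of 1, and removal of length and GC dependence in 20 bins over 3 rounds were tried. Calculations used Python 3.11.15, numpy 2.4.6, pandas 2.3.3 and matplotlib 3.10.9 and were tested on simulated data. Protein sequences, GRO-seq and CLIP-seq were not analysed here.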

Additional observations from a re-analysis of the deposited data

How the results depend on the processing

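The 9 members higher in MT, the 0 lower in MT, the 1 higher in si-hnRNPL and the 0 lower there did not change with a pseudocount of 0.1 or 0.01, centring, summed entries or nearest interval bounds, nor without a filter. At a log2 size of 1, 8 were higher in MT. Requiring 1 FPKM in both libraries left 4 members, of which 3 were higher in MT, with a median of 1.16. Among 10718 named genes, 1284 were higher and 3102 lower, with a median of -0.23. The members removed, Klhl41, Trim54, Klhl31, Klhl40, Trim72 and Trim63, lay below 1 FPKM in MB and had been kept through MT alone. At a pseudocount of 1 they had the largest log2 differences of the members. The median log2 difference of MT over MB was 4.46 with a pseudocount of 0.1, 4.76 with 0.01, 3.30 after centring and 2.93 with the nearest interval bounds. That of si-hnRNPL over si-NC was 0.0537 with the nearest bounds. Centring MT over MB on the median of the genes at 1 FPKM or more in both libraries (-0.23) gave 2666 named genes higher and 2187 lower in MT, against 1813 and 3353 as deposited. A log2 size of 1 gave 928 and 1557. The 147 higher and 99 lower in si-hnRNPL became 262 and 209 with a pseudocount of 0.1 and 283 and 220 with 0.01. They became 19 and 12 with the nearest bounds and 32 and 16 at a log2 size of 1. Requiring 1 FPKM in both libraries gave 109 and 83 of 11046 genes. With length and GC content also taken out, they were 43 and 52 of 10672. With other pseudocounts, centring or length and GC content taken out, the members' log2 differences kept their sign except that of Trim55 in si-hnRNPL over si-NC, which went from 0.003 to -0.08 with length and GC content taken out. With 1 library per condition no replicate could be left out, and no paired analysis was possible because no group has a second library. Each interval describes 1 library, so variation between cultures is not measured. Asb2 in the polyA libraries and Trim72 and Klhl40 in MB rest on few fragments.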
